A study of Mus musculus with 3 samples.

Results

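Extracellular ATP and adenosine genes were read on expression arrays of macrophages from mice with 4T1 tumors. 4T1 is a mammary carcinoma line that, grown in the fat pad of BALB/c mice, spreads to the lung. The 10 genes chosen were *Entpd1*, *Nt5e*, *Adora2a*, *Adora2b*, *Adora3*, *P2rx4*, *P2rx7*, *P2ry6*, *P2ry12* and *P2ry14*, and their members were all probe sets that the platform annotation assigns to a single one of these symbols. This gave 18 probe sets of 8 genes, out of 18193 genes measured. No probe set was matched to *Adora2a* or *Adora2b* under that rule, and these receptors were not analysed here. The data held 3 arrays, 1 per group. mTAMs were tumor-associated macrophages of the metastatic lung and pTAMs those of the matched primary tumor, both taken 5 weeks after the tumor cells were given. BMDM, the control, were macrophages cultured from the marrow of tumor-free mice. The study describes its TAMs as sorted for CD11b and for the macrophage antigen encoded by *Adgre1*, and the tumor cells as given to young mice a few weeks old. How many mice each array stands for, and how its BMDM were grown or whether they were sorted, is not stated for these arrays in the sources used here. With 1 array per group there was no replicate, so differences carry no error across animals and no test between groups was possible. Tissue of origin, sorting from digested tissue and growth in culture cannot be told apart in the comparisons with BMDM.

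ATP released by stressed or dying cells acts on macrophages through P2X receptors, which are ATP-gated ion channels, and through P2Y receptors, which couple to G proteins and sense ATP, ADP, UTP, UDP or UDP-sugars. CD39, the product of *Entpd1*, cleaves ATP and ADP to AMP, and CD73, the product of *Nt5e*, turns AMP into adenosine. Adenosine receptors that raise cAMP are known to dampen the activity of immune cells, so that this chain of enzymes is widely studied in tumors.

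Levels are RMA values, which are log2 intensities normalized between arrays. Olfactory, vomeronasal and taste receptor genes, taken as silent, set the background at 5.56, here called the floor. A gene was compared between a pair of arrays if it lay above the floor on at least 1 of them, and was called higher or lower at a difference of at least 1 on the log2 scale, which is 2-fold. Of the 8 genes measured, 7 lay above the floor, and *Adora3* did not on any array. Technical spread could be judged only from genes with several probe sets. The SD of the log2 difference among probe sets of a gene was 0.52 in mTAMs against BMDM, 0.42 in pTAMs against BMDM and 0.28 between mTAMs and pTAMs, and it covers neither animals nor sorts nor arrays. In bulk RNA, fewer cells of a type and less RNA per cell cannot be told apart.

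The promoters shown are those of the 5 genes that differed at least 2-fold from BMDM in either kind of TAMs. They were chosen because these genes fall into 2 patterns of expression on their main probe sets. There *Entpd1*, *P2ry12* and *P2ry14* were similar in mTAMs and pTAMs, whereas *Nt5e* and *P2rx7* were highest in pTAMs. Another probe set of *Entpd1* read higher in pTAMs (8.56) than in mTAMs (7.92), so its place in the first pattern is not secure. Each sequence is the RefSeq window (assembly GRCm38.p6) from 250 bases before to 50 bases after the outermost start site, read 5′ to 3′ on the strand of the gene. Capitals mark matches, on either strand, to TGACG (the core of a cAMP response element), ACGTG (the core bound by hypoxia-inducible factors), TGANTCA (AP-1), GGGCGG (Sp1) and GAGGAA (PU.1).

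Entpd1, chr19:40612116-40612415, plus strand: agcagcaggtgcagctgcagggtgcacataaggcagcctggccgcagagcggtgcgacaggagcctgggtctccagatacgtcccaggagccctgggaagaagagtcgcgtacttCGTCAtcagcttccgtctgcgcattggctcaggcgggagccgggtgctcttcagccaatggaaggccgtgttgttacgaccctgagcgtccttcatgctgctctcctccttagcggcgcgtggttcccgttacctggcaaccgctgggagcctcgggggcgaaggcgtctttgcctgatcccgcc
P2ry12, chr3:59262936-59263235, minus strand: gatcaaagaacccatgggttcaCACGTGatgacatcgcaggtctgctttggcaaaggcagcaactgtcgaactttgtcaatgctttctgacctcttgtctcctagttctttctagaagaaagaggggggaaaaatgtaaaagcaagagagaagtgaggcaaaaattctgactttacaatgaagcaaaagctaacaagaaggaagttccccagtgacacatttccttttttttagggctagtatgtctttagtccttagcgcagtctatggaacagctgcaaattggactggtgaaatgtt
P2ry14, chr3:59153443-59153742, minus strand: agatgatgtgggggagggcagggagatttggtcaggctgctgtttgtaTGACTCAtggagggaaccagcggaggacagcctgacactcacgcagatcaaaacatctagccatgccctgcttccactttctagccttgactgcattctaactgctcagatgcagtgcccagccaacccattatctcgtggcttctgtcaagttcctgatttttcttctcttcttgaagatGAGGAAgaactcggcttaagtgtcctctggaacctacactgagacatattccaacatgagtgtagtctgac
Nt5e, chr9:88327359-88327658, plus strand: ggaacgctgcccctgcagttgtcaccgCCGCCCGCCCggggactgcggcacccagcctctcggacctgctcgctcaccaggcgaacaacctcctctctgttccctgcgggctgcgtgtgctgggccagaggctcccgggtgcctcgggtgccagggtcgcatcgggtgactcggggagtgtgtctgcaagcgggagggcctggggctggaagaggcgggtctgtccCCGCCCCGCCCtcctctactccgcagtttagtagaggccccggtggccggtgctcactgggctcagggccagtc
P2rx7, chr5:122643677-122643976, plus strand: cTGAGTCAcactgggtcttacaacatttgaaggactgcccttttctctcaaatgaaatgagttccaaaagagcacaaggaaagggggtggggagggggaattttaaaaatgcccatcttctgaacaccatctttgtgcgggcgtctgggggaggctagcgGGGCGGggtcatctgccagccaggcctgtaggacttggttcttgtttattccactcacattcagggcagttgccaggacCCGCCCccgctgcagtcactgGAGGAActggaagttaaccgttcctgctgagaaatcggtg

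A match describes letters in these windows and does not show that a factor binds there. In the window of *Entpd1* the only match was a TGACG at position -135, counted from the start site, on the opposite strand. TGACG stood in 20.8% of the 32851 RefSeq windows. *P2ry12* held ACGTG on both strands at positions -228 and -227, which are the same letters read either way, and 19.6% of all windows held it. *P2ry14* held an AP-1 match at -202 (7.81% of all windows) and a PU.1 match at -21 (28.3%). *Nt5e* held 4 Sp1 matches in overlapping pairs, at -223 and -219 and at -24 and -19, and 35.7% of all windows held at least 1. *P2rx7* held AP-1, PU.1 and 2 Sp1 matches. Sp1 matches stood in 4 of the 13 windows of the listed genes, a share near that of all windows, and these included *P2rx4*, which was called in no comparison, and *Adora2b*, which was not measured. Windows at further start sites inside the genes held a TGACG at -183 and 2 PU.1 matches in *Entpd1*, and a PU.1 match but no Sp1 match in *P2rx7*. All 3 such windows of *P2ry14* held a PU.1 match, but those at -29 and -239 are the same letters in overlapping windows. The window with the match at -29 also held an AP-1 match at -144.

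**Figure D1:**
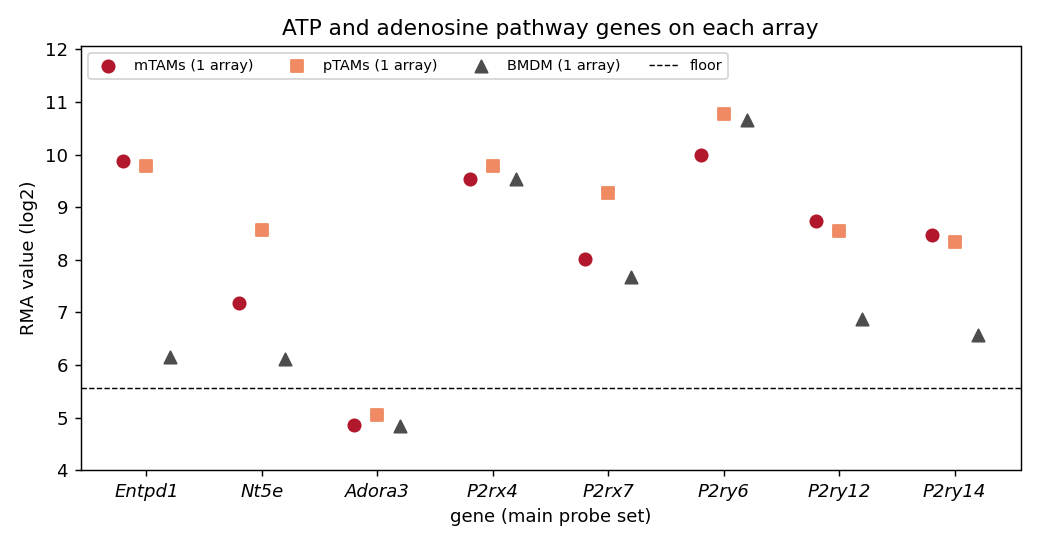
RMA value (vertical axis, log2) of the main probe set of each gene (horizontal axis) on the mTAM, pTAM and BMDM arrays, a point for each array. The dashed line is the floor at 5.56. *Entpd1*, *P2ry12* and *P2ry14* have both TAM points well above BMDM, *Nt5e* and *P2rx7* have pTAMs on top, and *Adora3* lies below the floor.

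To ask how macrophages of the tumors differed from cultured macrophages, both TAM arrays were set against the BMDM array. The first enzyme of the chain differed most among main probe sets. *Entpd1* read 9.87 in mTAMs, 9.79 in pTAMs and 6.15 in BMDM. It was thus 13.2-fold higher in mTAMs and 12.5-fold higher in pTAMs than in BMDM. It differed by 0.08 between the TAM arrays, less than the spread between probe sets. Only 1.42% of the 11229 genes compared had a log2 difference at least as large in pTAMs against BMDM, and 2.06% of 11305 genes in mTAMs against BMDM. All 3 probe sets of *Entpd1* gave the same direction. The second gave 7.92 in mTAMs, 8.56 in pTAMs and 5.78 in BMDM, a difference from BMDM of 2.14 in mTAMs and 2.78 in pTAMs. The third gave 7.74 in mTAMs, 8.0 in pTAMs and 5.15 in BMDM, which is below the floor, so that its folds of 4.53 in mTAMs and 5.43 in pTAMs are lower bounds.

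The second enzyme was higher in TAMs too, but unequally between them. *Nt5e* read 7.18 in mTAMs, 8.56 in pTAMs and 6.11 in BMDM. It was 2.10-fold higher in mTAMs and 5.46-fold higher in pTAMs than in BMDM. Another probe set of *Nt5e* had nearly the same mean over the arrays (7.277 against 7.283) and gave 8.31 in mTAMs, 10.25 in pTAMs and 3.27 in BMDM. On that probe set BMDM lay below the floor, so that the excess over BMDM was at least 6.73-fold in mTAMs and at least 25.8-fold in pTAMs. Thus both probe sets placed pTAMs first, mTAMs next and BMDM last, but they disagreed on whether BMDM had a signal above background and on the size of the gap. The remaining probe set of *Nt5e* read 3.96 on all arrays.

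Among the receptors, *P2ry12* and *P2ry14* were higher in both kinds of TAMs. *P2ry12*, the ADP receptor known from platelets and microglia, read 8.74 in mTAMs, 8.54 in pTAMs and 6.88 in BMDM, 3.63-fold and 3.16-fold above BMDM in mTAMs and pTAMs. *P2ry14*, the receptor for UDP-glucose, read 8.48 in mTAMs, 8.34 in pTAMs and 6.58 in BMDM, 3.73-fold and 3.39-fold above BMDM in mTAMs and pTAMs. Both genes were read from 1 probe set each, and their mTAM and pTAM values differed by 0.20 and 0.14, less than the spread between probe sets. *P2rx7*, the channel that opens at high ATP and triggers the NLRP3 inflammasome in primed macrophages, read 8.02 in mTAMs, 9.27 in pTAMs and 7.67 in BMDM. The pTAM value was 3.03-fold above BMDM, whereas the mTAM value was 1.27-fold above BMDM and within the spread between probe sets. Its second probe set gave 7.71 in mTAMs, 9.29 in pTAMs and 7.56 in BMDM, with the same order. The third, of lower signal, gave 6.06 in mTAMs, 6.31 in pTAMs and 6.01 in BMDM and did not pass 2-fold in any comparison.

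*P2rx4* and *P2ry6* did not reach 2-fold in any comparison. *P2rx4*, an ATP-gated channel that is also found on lysosomes, read 9.53 in mTAMs, 9.79 in pTAMs and 9.53 in BMDM, and its other 2 probe sets above the floor differed by at most 0.22 between arrays. In the RefSeq table *P2rx4* and *P2rx7* are neighbors on chromosome 5. *P2ry6*, the UDP receptor known to promote phagocytosis by microglia, read 9.99 in mTAMs, 10.77 in pTAMs and 10.65 in BMDM on its only probe set. Its pTAM and BMDM values differed by less than the spread between probe sets, and the mTAM value was the lowest. *Adora3*, which encodes an adenosine receptor coupled to an inhibitory G protein, read 4.86 in mTAMs, 5.05 in pTAMs and 4.84 in BMDM, and 4.91 in mTAMs, 4.84 in pTAMs and 4.85 in BMDM on its other probe set. All of these values were background.

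Of the 7 genes compared, 5 were called higher in pTAMs against BMDM (*Entpd1*, *Nt5e*, *P2rx7*, *P2ry12* and *P2ry14*) and none was called lower. Of all 11229 genes compared, 9.21% were called higher and 7.85% lower. The median log2 difference was 1.66 over the 7 genes and -0.07 over all genes. In mTAMs against BMDM, 4 of the 7 were higher (*Entpd1*, *Nt5e*, *P2ry12* and *P2ry14*) and none was lower, with 12% of 11305 genes called higher and 15.1% lower. The median was 1.07 over the 7 genes and -0.14 over all. These comparisons share the BMDM array, so a high or low BMDM value enters both. The split of calls over all genes in mTAMs against BMDM depended on the scaling, with 44.3% of calls higher as deposited and 55.1% after cyclic loess normalization, while the same 4 pathway genes were called in each scaling tried. Of these, *Nt5e* lay close to the threshold on its main probe set. The log2 difference of that probe set was 1.07 as deposited, 1.18 after cyclic loess, 1.03 after quantile and 1.0 after median-centring normalization. The other probe set of *Nt5e* above the floor was far from the threshold, at 5.04 as measured and at least 2.75 with BMDM raised to the floor. Averaging all probe sets of *Nt5e* gave 2.04.

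Metastatic and primary macrophages were then set against each other. In mTAMs against pTAMs none of the 7 genes was called higher, and 2 were called lower, *Nt5e* (7.18 in mTAMs, 8.56 in pTAMs, 2.60-fold lower) and *P2rx7* (8.02 in mTAMs, 9.27 in pTAMs, 2.38-fold lower). Of 11141 genes compared, 5.59% were called higher and 2.71% lower, and a difference at least as low as that of *Nt5e* was seen for 0.942% of genes and as low as that of *P2rx7* for 1.33%. The median was -0.26 over the 7 genes and -0.08 over all. Other probe sets gave 3.84-fold for *Nt5e* and 2.99-fold and 1.19-fold for *P2rx7*, all lower in mTAMs. *P2ry6* was 1.72-fold lower in mTAMs, a log2 difference of -0.78 that is past the spread between probe sets but not past 2-fold. On their main probe sets *P2rx4* (-0.26), *Entpd1* (0.08), *P2ry12* (0.20) and *P2ry14* (0.14) stayed within that spread. The other probe sets of *Entpd1* gave the opposite sign, -0.64 (1.56-fold lower in mTAMs, past the spread) and -0.26, so its direction between the TAM arrays was not settled. At a threshold of 3-fold neither *Nt5e* nor *P2rx7* was called on its main probe set, though the other probe set of *Nt5e* was past it at 3.84-fold.

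**Figure D2:**
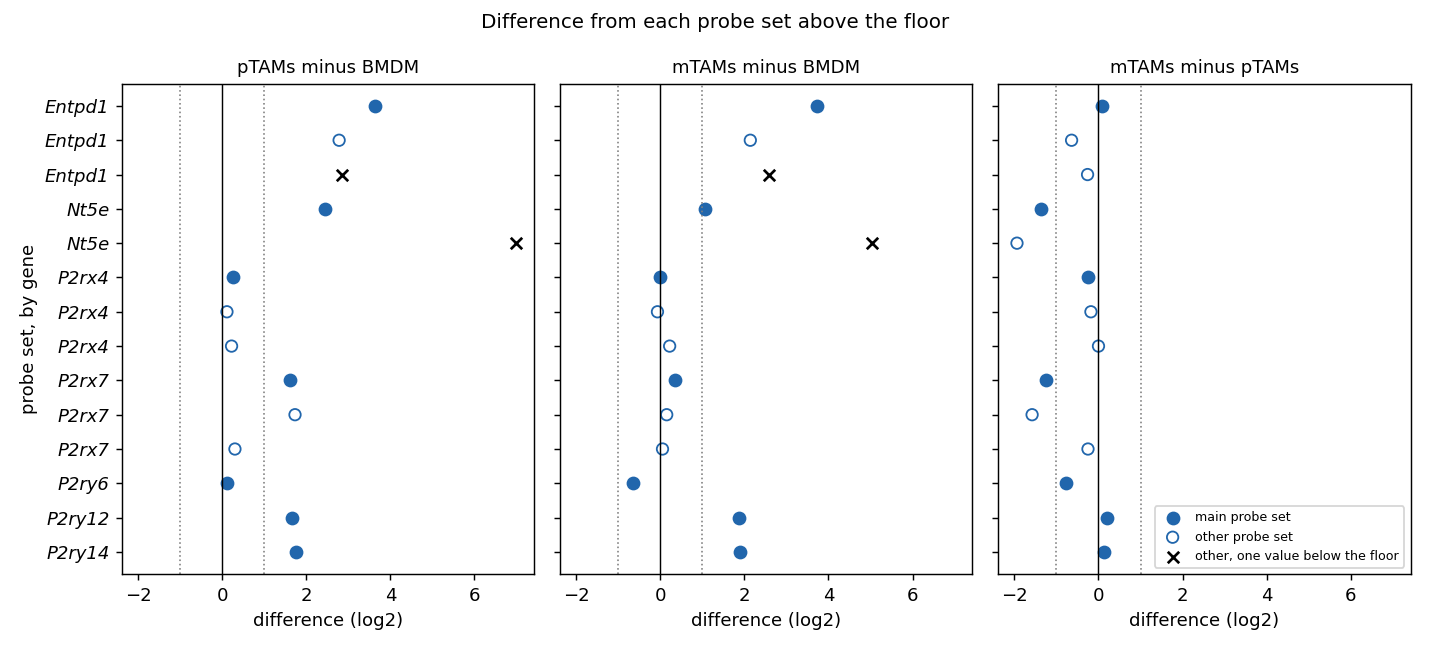
Log2 difference (horizontal axis) from each of the 14 probe sets above the floor (vertical axis, grouped by gene) in pTAMs minus BMDM, mTAMs minus BMDM and mTAMs minus pTAMs, with dotted lines at 2-fold. The probe sets of *Entpd1* agree in direction against BMDM, those of *Nt5e* lie far apart there (2.45 and a measured 6.98 in pTAMs), and *Nt5e* and *P2rx7* lie to the left of 0 in mTAMs minus pTAMs.

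The other genes of the pathway came from lists of 72 genes by role, of which 66 were measured. Apart from the 7 genes above, 9 of 52 compared were called higher and 8 lower in pTAMs against BMDM (median -0.02). In mTAMs against BMDM it was 12 higher and 5 lower of 52 (median -0.01), and in mTAMs against pTAMs 5 higher and 5 lower of 51 (median -0.02). The shares of all genes called higher and lower were 9.21% and 7.85% for pTAMs against BMDM, 12% and 15.1% for mTAMs against BMDM, and 5.59% and 2.71% for mTAMs against pTAMs. The counts of lower genes depended on the processing, with 4 in pTAMs against BMDM and 2 in mTAMs against pTAMs when probe sets were averaged, and between 3 and 8 in mTAMs against BMDM over the alternatives.

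Among ectoenzymes, *Entpd3*, which encodes another ATP- and ADP-cleaving enzyme of the cell surface, read 9.21 in mTAMs, 6.27 in pTAMs and 4.34 in BMDM. Read from 1 probe set, mTAMs exceeded pTAMs by 7.67-fold and BMDM by at least 12.6-fold. *Bst1*, which encodes the NAD-cleaving enzyme CD157, read 11.11 in mTAMs, 10.25 in pTAMs and 10.04 in BMDM, 2.10-fold higher in mTAMs than in BMDM. *Ada*, which encodes the deaminase that removes adenosine, read 8.25 in mTAMs, 8.86 in pTAMs and 9.12 in BMDM and passed 2-fold nowhere. *Entpd8* and *Enpp3* lay below the floor on all arrays.

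Genes that handle adenosine and other purines inside the cell came next. Of 14 compared, 4 were at least 2-fold lower and none higher in pTAMs than in BMDM (median -0.57), and 3 were lower and 1 higher in mTAMs (median -0.86). Of all genes, 7.85% were lower in pTAMs (median -0.07) and 15.1% in mTAMs (median -0.14), so that the mTAM count of 3 was near the background. *Adk*, which encodes the kinase that returns adenosine to AMP, read 8.94 in mTAMs, 9.22 in pTAMs and 10.65 in BMDM, 3.27-fold and 2.69-fold lower than BMDM in mTAMs and pTAMs, and its second probe set gave -1.70 in mTAMs and -1.56 in pTAMs. *Ahcy*, whose product releases adenosine from S-adenosylhomocysteine, was 2.07-fold lower in mTAMs than in BMDM. *Entpd5*, which encodes an ER enzyme that cleaves UDP, was 2.01-fold lower in mTAMs and 2.06-fold lower in pTAMs on its main probe set. Its other probe sets above the floor gave -0.71, -0.55, -0.52 and -0.58 in mTAMs, none of them past 2-fold. In pTAMs they gave -1.23, -1.05, -0.58 and -0.58. *Ampd3*, which encodes an AMP deaminase, read 10.59 in mTAMs, 7.87 in pTAMs and 9.12 in BMDM, hence 6.59-fold higher in mTAMs than in pTAMs. Among genes of release and transport, *Gja1*, which encodes the hemichannel protein connexin 43, read 9.50 in mTAMs, 10.57 in pTAMs and 7.27 in BMDM. *Slc29a3*, a nucleoside transporter of lysosomes, was 2.64-fold higher in pTAMs than in BMDM, with a difference of 0.66 from its second probe set. *Panx1*, which encodes an ATP release channel, read 7.39 in mTAMs, 7.87 in pTAMs and 8.31 in BMDM and was not called.

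Further P2Y receptors differed as well. *P2ry13*, an ADP receptor, read 9.91 in mTAMs, 8.64 in pTAMs and 6.48 in BMDM. It was 10.8-fold above BMDM in mTAMs and 4.47-fold in pTAMs, with mTAMs 2.41-fold above pTAMs. *P2ry1*, another ADP receptor, read 7.31 in mTAMs, 5.26 in pTAMs and 6.39 in BMDM. The pTAM value was background, so the mTAM excess over it was at least 3.36-fold. *P2ry2*, which responds to ATP and UTP, read 7.23 in mTAMs, 6.66 in pTAMs and 6.06 in BMDM, 2.25-fold higher in mTAMs than in BMDM. *P2ry10*, a lysophosphatidylserine receptor despite its name, read 5.86 in mTAMs, 7.06 in pTAMs and 4.27 in BMDM. *P2ry4*, *Gpr17* and all P2X genes besides *P2rx4* and *P2rx7* lay below the floor on all arrays. In the RefSeq table *P2ry14*, *P2ry13* and *P2ry12* lie on chromosome 3 inside *Med12l*, together with *Gpr171*. These neighbors were looked up after the values of the receptors had been seen. *Gpr171* read 8.41 in mTAMs, 10.14 in pTAMs and 4.21 in BMDM. *Med12l* read 9.60 in mTAMs, 7.20 in pTAMs and 4.81 in BMDM on 1 probe set and below the floor on its other 2. Thus each of these 5 genes was called higher in both kinds of TAMs than in BMDM, while the order of mTAMs and pTAMs differed between them. The receptors *P2ry12*, *P2ry13* and *P2ry14* had prompted the look-up, so their calls were known beforehand. Of all genes compared, 12% were called higher in mTAMs and 9.21% in pTAMs against BMDM. Whether the genes of this region change together was not tested.

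Adenosine receptors act through cAMP. Over the 18 genes of that route that were compared, 3 were higher and 3 lower in pTAMs than in BMDM (median -0.06). The shares of all genes there were 9.21% higher and 7.85% lower. In mTAMs 2 were higher and 2 lower (median 0.00), where the shares of all genes were 12% higher and 15.1% lower. The list as a whole thus did not exceed the background in mTAMs, and the genes named next are its called members. *Pde4b*, which encodes a cAMP-degrading phosphodiesterase, read 10.06 in mTAMs, 9.38 in pTAMs and 5.0 in BMDM. The excess over BMDM was at least 22.6-fold in mTAMs and at least 14.1-fold in pTAMs. *Pde3b*, another phosphodiesterase gene, read 8.68 in mTAMs, 10.25 in pTAMs and 7.41 in BMDM. *Crem*, a cAMP-responsive transcription factor gene, read 7.92 in mTAMs, 9.14 in pTAMs and 6.94 in BMDM, 2.33-fold lower in mTAMs than in pTAMs. *Prkacb*, a catalytic subunit gene of protein kinase A, was 3.46-fold and 2.55-fold lower than BMDM in mTAMs and pTAMs. *Adcy9*, which encodes an adenylyl cyclase, was at least 5.43-fold lower in mTAMs and 4.63-fold lower in pTAMs. *Prkar2b*, a regulatory subunit gene of the kinase, read 8.56 in mTAMs, 6.73 in pTAMs and 8.55 in BMDM. Genes listed for the output of P2X7 were read as RNA, which does not measure the activity of that channel. Among them *Il1b* read 14.08 in mTAMs, 13.30 in pTAMs and 5.16 in BMDM, and *Il18* read 10.36 in mTAMs, 9.37 in pTAMs and 8.44 in BMDM. *Nlrp3*, the sensor, read 10.03 in mTAMs, 9.63 in pTAMs and 8.90 in BMDM, and *Casp1*, the protease, 9.77 in mTAMs, 9.68 in pTAMs and 10.48 in BMDM. *Pycard*, the adaptor between them, was 10.03 in mTAMs and 11.23 in pTAMs, 2.30-fold lower in mTAMs, and 10.69 in BMDM.

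**Figure D3:**
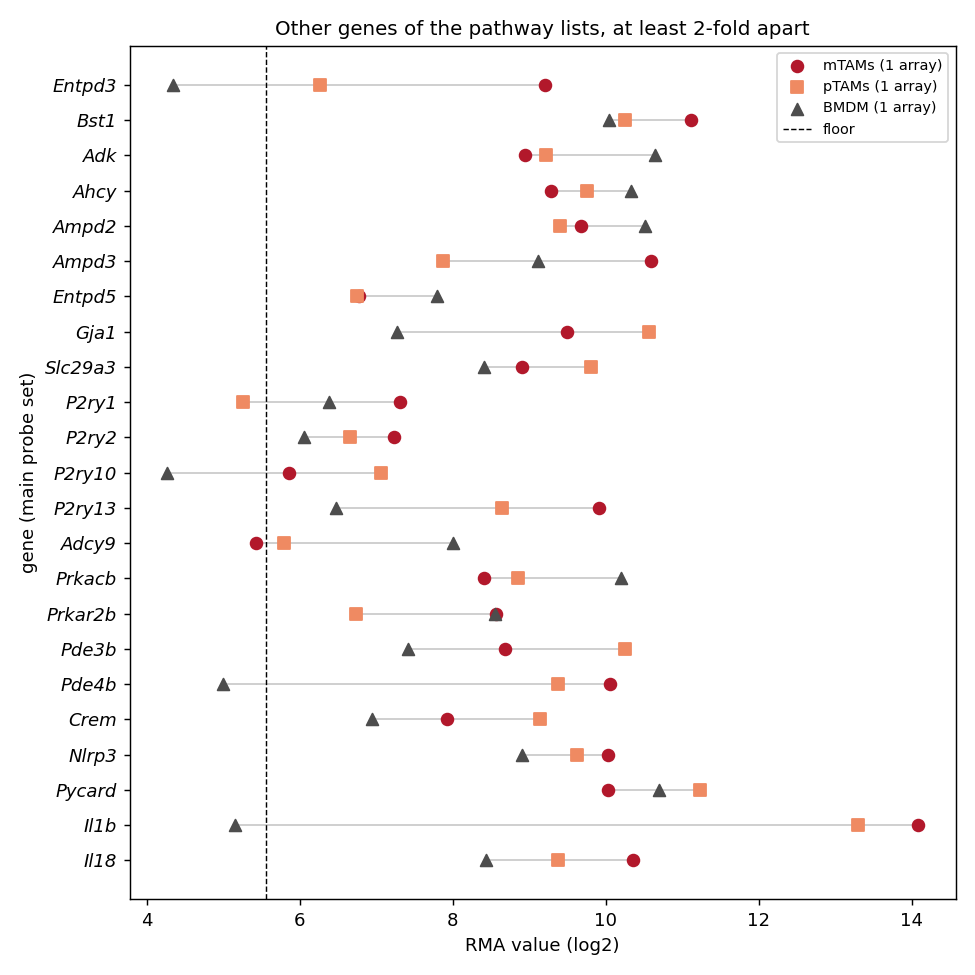
RMA value (horizontal axis, log2) on each array of the genes of the pathway lists, other than the 10 chosen, that were at least 2-fold apart in a comparison (vertical axis), with the floor of 5.56 dashed. mTAMs are highest for *Entpd3*, *Ampd3*, *P2ry1* and *P2ry13*, pTAMs for *Gja1*, *Pde3b* and *Crem*, and BMDM for *Adk*, *Adcy9* and *Prkacb*.

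The labelled cell type was checked against macrophage markers, all 8 of which lay above the floor on each array, with mean values of 11.73 in mTAMs, 11.96 in pTAMs and 11.92 in BMDM. The list holds *Itgam* and *Adgre1*, the genes of the antigens used to sort TAMs. The even means hide members that moved in opposite directions. *Adgre1* was 3.66-fold lower in mTAMs and 3.81-fold lower in pTAMs than in BMDM. *Itgam* was 2.22-fold higher in mTAMs and 2.71-fold higher in pTAMs than in BMDM. Of the 8 markers, 3 were called higher and 1 lower in pTAMs against BMDM, and 2 higher and 1 lower in mTAMs against BMDM. Markers of other cells moved with the groups. Of 6 neutrophil markers measured, all were above the floor in mTAMs (mean 13.13) and pTAMs (11.23) and 4 in BMDM (6.95). Of 6 epithelial or carcinoma markers, 4 were above the floor in mTAMs (mean 7.17), 5 in pTAMs (7.98) and 1 in BMDM (4.97), the same order as that of *Nt5e*. *Krt8* read 9.57 in mTAMs, 10.36 in pTAMs and 5.34 in BMDM, while *Epcam* read 6.53 in mTAMs, 6.53 in pTAMs and 6.38 in BMDM. Fibroblast markers, 6 in all, had 5 above the floor in mTAMs (mean 8.22), 4 in pTAMs (6.61) and 0 in BMDM (5.03), and *Thy1* was below the floor throughout. Endothelial markers had 3 of 6 above the floor in mTAMs (5.35), 3 in pTAMs (5.64) and 2 in BMDM (5.14), and those above it differed in direction. *Pecam1* read 5.96 in mTAMs, 7.61 in pTAMs and 3.92 in BMDM, *Kdr* 6.42 in mTAMs, 6.33 in pTAMs and 7.08 in BMDM, and *Esam* 5.89 in mTAMs, 5.97 in pTAMs and 5.99 in BMDM, while *Cdh5*, *Cldn5* and *Tek* were below the floor. *Nt5e* is also known from carcinoma cells, fibroblasts, endothelium and lymphocytes, and the part of such cells in its values was not tested. B cell markers were below the floor except *Pax5*, which read 5.97 on each array. T cell markers had 3 of 5 above the floor on each array, with a mean of 6.17 in mTAMs, 5.72 in pTAMs and 5.63 in BMDM. Of these *Cd3d* read 8.31 in mTAMs, 6.03 in pTAMs and 5.86 in BMDM, while *Cd3e* and *Cd4* differed by at most 0.08 between arrays. Dendritic cell markers had 3 of 5 above the floor in mTAMs, 4 in pTAMs and 2 in BMDM, and NK cell markers 1 of 4 on each array. That NK cell marker, *Klrk1*, read 7.05 in mTAMs, 8.13 in pTAMs and 5.68 in BMDM, the same order as that of *Nt5e*. Monocyte markers averaged 12.53 in mTAMs, 12.08 in pTAMs and 7.63 in BMDM, and lung epithelial markers 7.5 in mTAMs, 5.42 in pTAMs and 5.26 in BMDM. Between the TAM arrays the monocyte markers did not move together. *Chil3* read 13.5 in mTAMs and 11.2 in pTAMs, *Ccr2* 11.34 in mTAMs and 12.27 in pTAMs, and *Plac8* 12.76 on both. Among lung epithelial markers *Scgb1a1* read 12.17 in mTAMs and 4.21 in pTAMs, while the others lay between 5.64 and 6.98 in mTAMs. Markers of mast cells or basophils had 4 of 6 above the floor in mTAMs, 2 in pTAMs and 1 in BMDM (means 6.72, 4.68 and 4.45 in that order), and eosinophil markers 2 of 4 in mTAMs and 0 in pTAMs and BMDM. Alveolar macrophage markers were above the floor for 6 of 6 in mTAMs, 2 in pTAMs and 0 in BMDM (means 8.17, 5.45 and 4.24 in that order). This list and that of eosinophils share *Siglecf*, which read 8.91 in mTAMs and below the floor in pTAMs and BMDM. The lists of mast cells or basophils, eosinophils and alveolar macrophages were highest in mTAMs, like those of lung epithelium, neutrophils and fibroblasts. *Entpd3*, *Ampd3*, *P2ry1* and *P2ry13* were also highest there, and the part of such cells in these values was not tested. Platelet markers, relevant to *P2ry12* and *P2ry1*, had a mean of 7.60 in mTAMs, 8.13 in pTAMs and 7.59 in BMDM, and did not move together. *Ppbp* read 7.87 in mTAMs, 8.79 in pTAMs and 6.2 in BMDM, 3.18-fold above BMDM in mTAMs and 6.02-fold in pTAMs, the direction of *P2ry12*. *Pf4* read 10.62 in mTAMs, 12.4 in pTAMs and 12.19 in BMDM, 2.97-fold below BMDM in mTAMs. *Gp1bb* differed by at most 0.13 between arrays, and *Itga2b* (7.31) and *Gp9* (6.34) read the same on all arrays, as did 21.4% of all probe sets. The part of platelets in the values of *P2ry12* and *P2ry1* was not tested. Means of the neutrophil and monocyte lists, among others, were higher in both TAM arrays than in BMDM, as were *Entpd1*, *P2ry12* and *P2ry14*. What part such cells had in the values of these genes was not tested either.

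**Figure D4:**
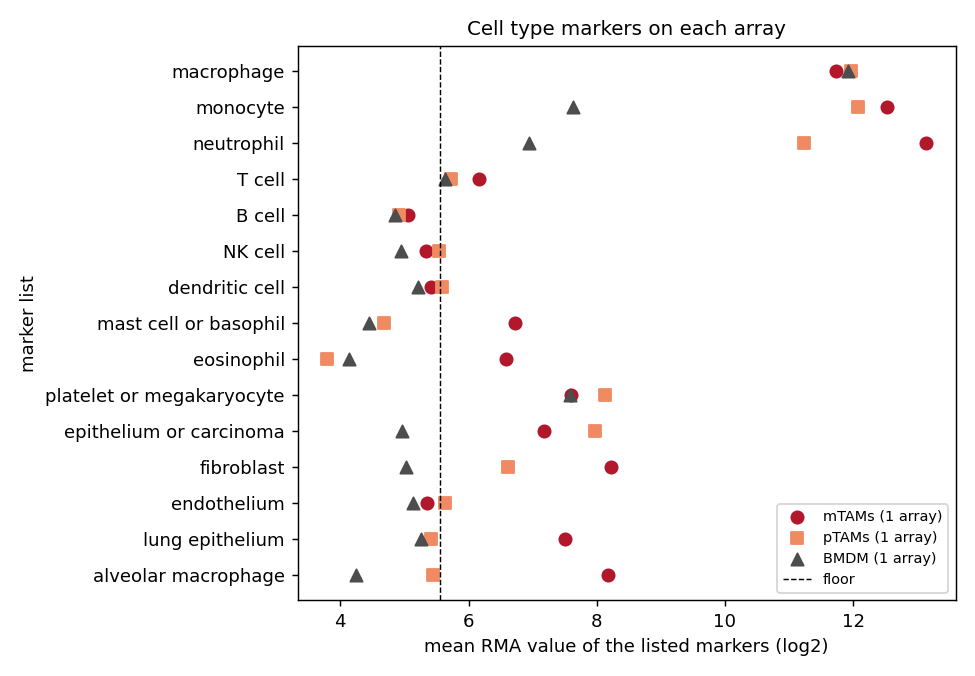
Mean RMA value (horizontal axis, log2) of each list of cell type markers (vertical axis) on the mTAM, pTAM and BMDM arrays, a point for each. The floor at 5.56 is dashed. Macrophage markers lie between 11.73 and 11.96, neutrophil markers reach 13.13 in mTAMs, and epithelial or carcinoma markers are highest in pTAMs at 7.98.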

How the data were processed

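From Affymetrix mouse arrays the authors deposited log2 values of RMA in 1 table, for which probe sets were background-corrected, quantile-normalized and summarized. No source used here states the RMA version. Each array has 45037 values with 2 decimals. Quantile normalization hides any shift shared by most genes. The number of arrays, 1 per group, limits the precision.

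Of the probe sets, 34945 had a single symbol in the platform annotation, 932 several and 9160 none. Only the first kind was used. Where several probe sets measured a gene, the main probe set was that of highest mean across arrays. The floor was the 95th percentile of 84 probe sets of olfactory, vomeronasal and taste receptors. Folds against a value at or below it are lower bounds. The 8 gene IDs matched the RefSeq table of GRCm38.p6. That table gave names and neighbors only, since the array table names no build, and sequences came from RefSeq promoter windows of the same assembly.

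The members and lists were chosen with earlier results of these data known. All members were named, and from the wider lists genes at least 2-fold apart in a comparison, at most 4 per list and comparison. Some other genes were named for their role or level. The promoters printed, *Gpr171*, *Med12l* and the order of marker lists were singled out after their values were seen. No search for genes of like pattern was made, because 3 arrays give 3 points. Alternatives were renormalization (cyclic loess, quantile or median-centring), averaging a gene's probe sets, no floor, a floor 1 unit higher, values raised to the floor, a 3-fold threshold and leaving out shared probe sets. A floor without the Tas1r receptors and the other probe set of *Nt5e* were added after seeing the data. Calling was run on simulated data with shifts well past the threshold and noise below the spread between probe sets. That run checks the code only and cannot speak for calls near 2-fold. Software was R 4.3.3, limma 3.58.1, Python 3.11.15, pandas 2.3.3, numpy 2.4.6 and matplotlib 3.10.9.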

Additional observations from a re-analysis of the deposited data

Results flagged for a closer look

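Relative to BMDM, 3 genes of the pathway lists moved in opposite directions in mTAMs and pTAMs by more than the spread between probe sets. The difference between the TAM arrays was not tested, as each is 1 array. *Ampd3* was 1.47 above BMDM in mTAMs and -1.25 in pTAMs, 2.72 apart. *P2ry1* was 0.92 above BMDM in mTAMs and -1.13 in pTAMs, 2.05 apart, with a pTAM value below the floor. *Pycard* was -0.66 in mTAMs and 0.54 above BMDM in pTAMs, a difference of -1.20. Of the 7 chosen genes above the floor, none did so.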

How the results depend on the processing

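No paired analysis was possible because each group holds 1 array. Of 60 recounts of the called pathway genes, 59 stayed within 1.5 times the value given, and the exception was the count lower in mTAMs than in pTAMs, which was 0 at 3-fold. Counts of 0 that stayed 0 are among the 59. The alternatives for the floor could not change any count. The 7 genes lay above 5.56 on every array and above 6.56 on both TAM arrays, and *Adora3* differed by at most 0.21 on its main probe set. The same genes were called after cyclic loess, quantile or median-centring normalization, averaging of probe sets, no floor, a floor 1 unit higher, values raised to the floor, without shared probe sets and with a floor of 5.3 from receptors without Tas1r. At 3-fold, *Nt5e* was not called in mTAMs against BMDM on its main probe set. After median-centring the log2 difference of that probe set there was 1.0, the threshold itself. Another probe set of *Nt5e* was at least 6.73-fold higher in that comparison. Averaging all probe sets moved *Entpd1* to 2.82 in mTAMs against BMDM, 3.09 in pTAMs against BMDM and -0.27 in mTAMs against pTAMs, and *Nt5e* to 2.04 in mTAMs and 3.14 in pTAMs against BMDM. Counts over all genes at 3-fold were 853 higher and 574 lower in mTAMs against BMDM (1354 and 1705 at 2-fold), 633 and 375 in pTAMs against BMDM (1034 and 881) and 287 and 57 in mTAMs against pTAMs (623 and 302). Among the other pathway genes, lower calls in mTAMs against BMDM numbered 8 after median-centring and 3 after cyclic loess normalization or with the mean of all probe sets, against 5 as given. With that mean, lower calls were 4 in pTAMs against BMDM (8 as given) and 2 in mTAMs against pTAMs (5), and cyclic loess gave 8 higher calls in mTAMs against pTAMs (5). Signal near the floor limits *Adora3*, *P2ry1* in pTAMs, and both *Entpd1* and *Nt5e* in BMDM.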
